A study of Mus musculus with 16 samples.

Results

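The genes described here are the Myc family and its partners: the activators Myc, Mycn and Mycl, their shared partner Max, and the other Max-binding proteins Mxd1, Mxd3, Mxd4, Mxi1, Mnt and Mga. They were chosen by symbol, which matched 10 of the 27179 genes in the count table, and all 10 passed the filter on low counts. RNA came from mouse embryonic stem (ES) cells on gelatin, collected before and after they left naive pluripotency, the culture state that resembles the early epiblast. The serum-free arm grew in 2i/LIF and the serum arm in serum/LIF+2i. Both media held leukaemia inhibitory factor (LIF) and 2i, which is the GSK3 inhibitor CHIR99021 together with the MEK inhibitor PD0325901. Cells of both arms had been cultured in serum with LIF and then adapted to their medium over several passages. To start exit, the serum-free arm lost 2i and LIF but kept its base medium. The serum arm was washed into a serum-free mix of DMEM and Neurobasal with supplements and glutamine, so that serum, inhibitors, cytokine and base medium changed at once. Libraries were made at 0, 12, 24 and 40 h, which gives 8 groups of 2 and 16 libraries in all. The titles give the serum arm a 12 h group that its written protocol does not mention. The labels name neither the ES cell line nor whether replicates were separate cultures, so p-values measure the spread between these libraries, which may be technical.

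Total counts per library ran from 5931381 to 11142744. Replicates had Pearson's r between 0.991 and 0.995 over genes. At 0 h 8 ES cell markers summed to 5389 to 5821 CPM (counts scaled to a common effective library size), against 1267 to 1337 CPM at 40 h. Neural markers summed to 56.5 to 61.4 CPM at 0 h and 136 to 155 CPM at 40 h, and trophoblast markers to 28.3 to 29.9 and 8.18 to 12.3 CPM. Markers of primitive endoderm, fibroblasts and mesoderm reached at most 16.2, 22.4 and 37.2 CPM in any library. Single genes of these lists, among them Lum (fibroblasts), Elf5 (trophoblast) and Mesp1 (mesoderm), were at 0 counts in both libraries of several groups. Other genes of the same lists made up the sums there. These markers moved with time in both arms, and their part in the results below was not tested. In bulk RNA, fewer cells of a type and less RNA per cell cannot be told apart.

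Proteins of the Myc family bind DNA as dimers with Max, mainly at the E-box CACGTG, and raise transcription of genes for ribosome production, metabolism and the cell cycle. Mxd proteins, Mxi1 and Mnt pair with the same Max and recruit Sin3 corepressors to the same sites. Mga also pairs with Max, and it is the scaffold of PRC1.6, a Polycomb complex that silences germline genes in ES cells. In ES cells, LIF through STAT3 has been reported to sustain Myc, and GSK3 marks Myc protein for degradation. Whether either acted on Myc RNA in these media was not tested.

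In GRCm38, the assembly behind the mm10 build named by the submitters, Myc lies on the plus strand at chr15:61985341-61990361, Mycn on the minus strand at chr12:12936093-12941836 and Mycl on the plus strand at chr4:122995588-123002490. Max lies on the minus strand at chr12:76937269-76962323 and Mga on the plus strand at chr2:119872503-119970129. Mnt is at chr11:74830806-74845725, Mxi1 at chr19:53310128-53373293, Mxd1 at chr6:86647044-86669234, Mxd3 at chr13:55325170-55329900 and Mxd4 at chr5:34176580-34187710. By GENCODE exons, Mxd3 shares 105 bases with Prelid1 on the other strand, Mxd4 shares 514 with Gm42846 and Mxi1 shares 194 with Gm10197. Whether counting used strand is not given in the sources used here, so reads of these partners cannot be told apart where they overlap.

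Start-site windows from RefSeq (assembly GRCm38.p6), 250 bases before to 50 after the start, were matched for 9 of the 10 genes. No window was matched for Myc, so the motif results do not cover it. The windows were searched on both strands for the E-box CACGTG, the E2F-type motif TTTNGCGC, the TCF-type motif CTTTGA and the STAT-type motif TTCNNNGAA. CACGTG was found in 3 of the 9, Max, Mnt and Mxd4, against 8.09% of 27025 genes with a window. TTTNGCGC was found in Mycn alone of the 9, against 1.57% of genes, at 3 places of which the first pair overlap on opposite strands. The Mycn window also held CTTTGA once, on the reverse strand, against 18.2% of genes. TTCNNNGAA was in 0 of the 9, against 9.55% of genes. A match is a run of letters and not evidence of binding. The 4 windows with CACGTG or TTTNGCGC are printed in the direction of the gene, from 250 bases before the start to 10 after it, with those motifs in capitals. The E-box of Max spans its start site.
Max, chr12:76962239-76962498, minus strand: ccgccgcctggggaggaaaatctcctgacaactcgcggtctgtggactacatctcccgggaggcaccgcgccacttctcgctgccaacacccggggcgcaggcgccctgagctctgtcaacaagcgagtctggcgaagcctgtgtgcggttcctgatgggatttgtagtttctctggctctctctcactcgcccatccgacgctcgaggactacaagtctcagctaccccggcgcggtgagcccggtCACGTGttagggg
Mnt, chr11:74830674-74830933, plus strand: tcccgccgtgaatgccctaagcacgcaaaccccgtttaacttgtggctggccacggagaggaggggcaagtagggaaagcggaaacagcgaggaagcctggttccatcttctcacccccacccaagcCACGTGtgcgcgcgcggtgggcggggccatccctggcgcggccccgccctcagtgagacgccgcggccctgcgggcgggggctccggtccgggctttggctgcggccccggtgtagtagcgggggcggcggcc
Mxd4, chr5:34187701-34187960, minus strand: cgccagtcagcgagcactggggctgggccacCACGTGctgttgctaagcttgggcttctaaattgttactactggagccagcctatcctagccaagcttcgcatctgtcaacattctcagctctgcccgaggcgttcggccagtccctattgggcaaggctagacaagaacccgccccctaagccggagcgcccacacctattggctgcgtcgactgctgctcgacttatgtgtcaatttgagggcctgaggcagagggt
Mycn, chr12:12941827-12942086, minus strand: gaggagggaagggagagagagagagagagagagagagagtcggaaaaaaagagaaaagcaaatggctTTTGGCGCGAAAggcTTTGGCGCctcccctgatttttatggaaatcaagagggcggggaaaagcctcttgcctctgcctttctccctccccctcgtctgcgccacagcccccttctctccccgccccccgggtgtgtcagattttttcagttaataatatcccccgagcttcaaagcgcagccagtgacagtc

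Myc rose steeply by 12 h in both arms. Replicates 1 and 2 of the serum-free arm held 9.05 and 8.44 CPM at 0 h, 60.0 and 56.2 at 12 h, 61.1 and 59.5 at 24 h, and 53.4 and 61.6 at 40 h. Those of the serum arm held 6.84 and 5.55 CPM at 0 h, 61.3 and 71.1 at 12 h, 68.6 and 66.6 at 24 h, and 99.2 and 101 at 40 h. Every library at 12 h or later lay far above every 0 h library, and the 40 h libraries of the serum arm lay above all others. At 12, 24 and 40 h the log2 fold change of the serum-free arm was 2.73 ± 0.13 (SE), 2.79 and 2.71 (adjusted p of 9.11e-42, 7.04e-43 and 3.28e-42 by edgeR's quasi-likelihood test). For the serum arm it was 3.42 ± 0.13, 3.44 and 4.01 (adjusted p of 2.32e-51, 1.16e-52 and 5.67e-64). Ordered by level, the 12, 24 and 40 h groups of the serum-free arm overlapped each other, as did the 12 and 24 h groups of the serum arm. From 24 to 40 h Myc rose by a further 0.57 ± 0.06 in the serum arm (edgeR adjusted p = 3.96e-14), beside -0.07 in the serum-free arm (adjusted p = 0.474).

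Mycn, the activator with the highest level per length at 0 h, took different courses in the arms. The serum-free replicates held 79.1 and 79.0 CPM at 0 h, 97.5 and 95.02 at 12 h, 179.8 and 186 at 24 h, and 192 and 163 at 40 h. The serum replicates held 124 and 111 CPM at 0 h, 110.2 and 112 at 12 h, 165 and 158 at 24 h, and 101 and 88.3 at 40 h. Both arms rose from 12 to 24 h, and at 40 h both serum libraries were back below their 0 h libraries while both serum-free libraries stayed above theirs. At the 3 times the serum-free log2 fold change was 0.28 ± 0.07, 1.21 ± 0.07 and 1.17 ± 0.07 (edgeR adjusted p of 0.000679, 2.17e-26 and 4.36e-26). The serum values were -0.08 at 12 h, which did not pass the test (adjusted p = 0.288), 0.45 ± 0.06 at 24 h (adjusted p = 3.74e-10) and -0.31 ± 0.06 at 40 h (adjusted p = 1.09e-05). From 24 to 40 h the change was -0.04 in the serum-free arm (edgeR adjusted p = 0.609) and -0.76 ± 0.06 in the serum arm (adjusted p = 2.41e-19).

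Mycl, the third activator, fell to its lowest level at 24 h in both arms and then partly recovered. The serum-free libraries held 60.96 and 57.4 CPM at 0 h, 33.8 and 38.1 at 12 h, 23.5 and 26.5 at 24 h, and 35.1 and 37.1 at 40 h. The serum libraries held 55.9 and 53.4 CPM at 0 h, 41.9 and 43.8 at 12 h, 22.2 and 24.9 at 24 h, and 43.8 and 41.7 at 40 h. Within each arm the 12 h and 40 h libraries overlapped, the 24 h libraries lay below them and the 0 h libraries above. At 24 h the log2 fold change against 0 h was -1.24 ± 0.10 for the serum-free arm and -1.21 ± 0.09 for the serum arm (edgeR adjusted p = 1.17e-22 and 1.03e-23). From 24 to 40 h Mycl rose by 0.53 ± 0.10 and 0.86 ± 0.09 (adjusted p = 8.1e-06 and 2.87e-15).

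**Figure D1:**
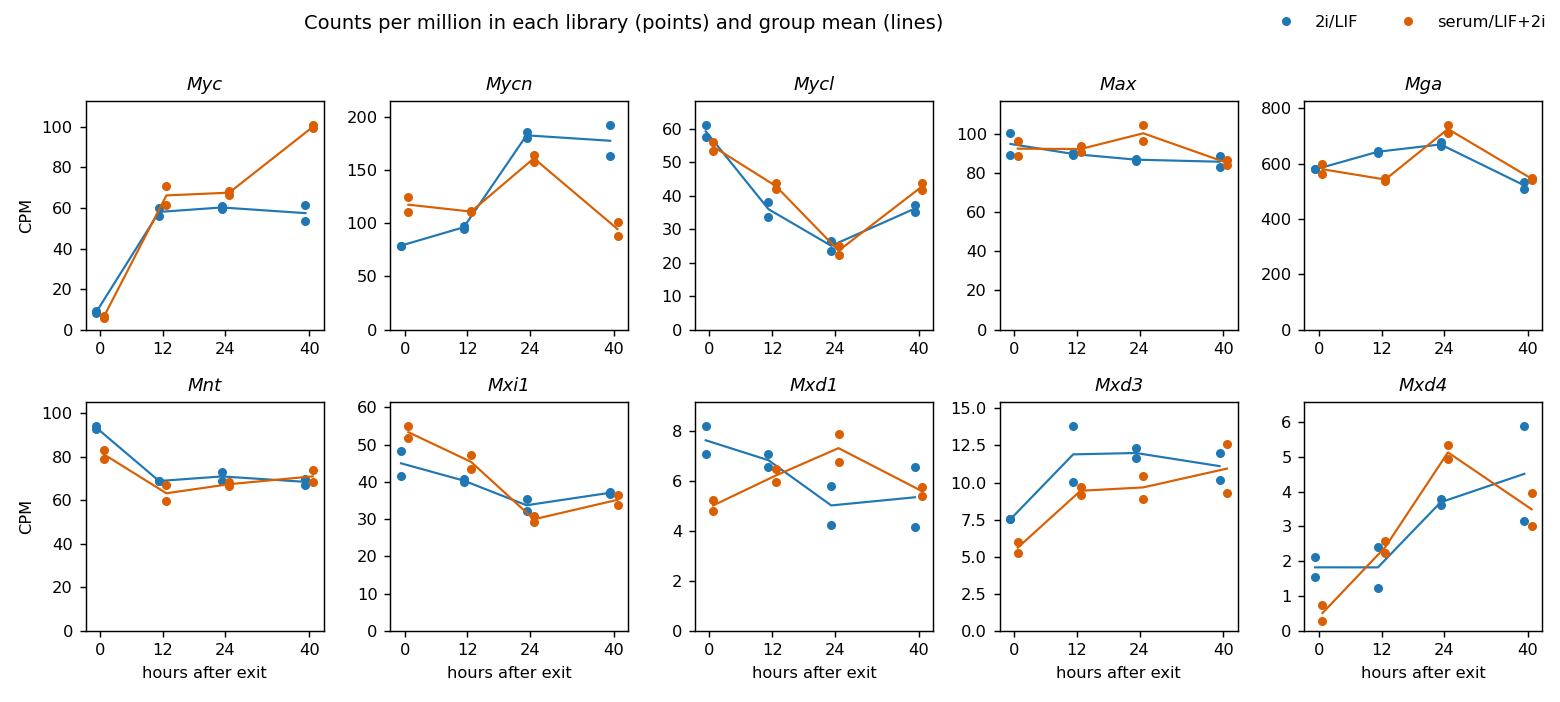
Levels in CPM (vertical axes) of the 10 genes against hours after exit, with each library as a point and each group mean on a line, blue for the serum-free arm (2i/LIF) and orange for the serum arm (serum/LIF+2i). Myc lies between 5.55 and 9.05 CPM at 0 h and between 53.4 and 101 CPM at 40 h, and Mycn separates between the arms at 40 h.

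Levels of different genes were compared per kilobase of the gene lengths in the table (RPKM). Those lengths fall short of the GENCODE exon lengths by unlike amounts. They were 2005 against 3598 bases for Max, 2596 against 3295 for Mycn and 1179 against 8483 for Mxd4. Shares, ratios and likenesses between genes, here and below, therefore depend on the lengths used. At 0 h in the serum-free arm Mycn held 59.0% and 60.4% of the summed RPKM of the 3 activators, Mycl 33.7% and 32.6%, and Myc 7.31% and 6.99%. The serum arm at 0 h had 71.8% and 70.8% for Mycn, 23.9% and 25.4% for Mycl and 4.27% and 3.84% for Myc. By 12 h the share of Myc was 34.6% and 33.0% in the serum-free libraries and 32.0% and 34.8% in the serum libraries. At 40 h Mycn was still the main activator of the serum-free arm, with 69.6% and 63.4% against 20.9% and 25.9% for Myc. At 40 h in the serum arm Myc held 44.6% and 47.8% and Mycn 41.9% and 38.7%, and this was the only group of the 8 in which Myc was above Mycn. The sum of the 3 went from 51.6 and 50.4 RPKM at 0 h to 106 and 99.1 at 40 h for the serum-free arm, and from 66.7 and 60.2 to 92.8 and 88.0 for the serum arm. These sums and shares are descriptions and were not tested.

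**Figure D2:**
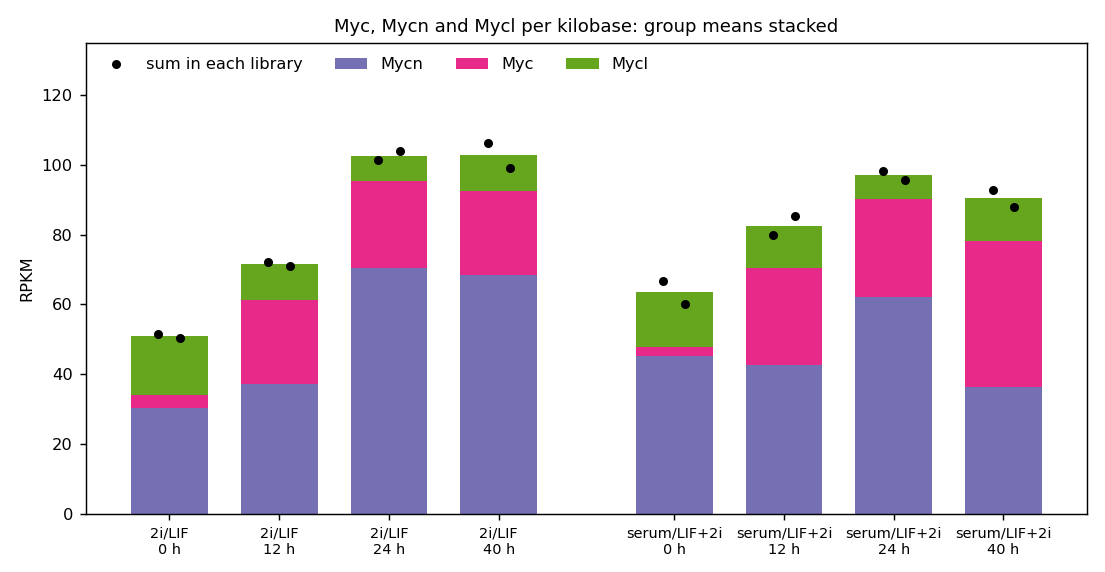
Stacked group means of Mycn, Myc and Mycl in RPKM (bars, starting at 0), with the sum in each library as points, by arm and hours after exit. The sums at 0 h are 51.6 and 50.4 RPKM in the serum-free arm and 66.7 and 60.2 in the serum arm, and Myc has its largest share, 44.6% and 47.8%, at 40 h in the serum arm.

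Max, the partner of all the others, varied little. The serum-free libraries held 100.4 and 88.9 CPM at 0 h, 90.1 and 89.0 at 12 h, 86.1 and 87.2 at 24 h, and 88.5 and 82.8 at 40 h. The serum libraries held 96.1 and 88.4 CPM at 0 h, 93.8 and 90.4 at 12 h, 104 and 96.1 at 24 h, and 83.8 and 86.3 at 40 h. The 40 h libraries of the serum arm lay just below all its other libraries. Of the 6 comparisons with 0 h, 1 passed the test, at 40 h in the serum-free arm, with a log2 fold change of -0.14 ± 0.07 (edgeR adjusted p = 0.0496), and DESeq2 did not call it (adjusted p = 0.141). The change from 24 to 40 h in the serum arm, -0.23 ± 0.06 (edgeR adjusted p = 0.000216), held under all alternatives run. The ratio of Max to the summed activators in RPKM was 0.9698 and 0.881 at 0 h and 0.415 and 0.417 at 40 h in the serum-free arm, and 0.719 and 0.733 and then 0.451 and 0.489 in the serum arm.

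Mga, the PRC1.6 scaffold, had group means of 37.4 to 52.1 RPKM by the deposited lengths, beside 42.4 to 49.9 RPKM for Max. This likeness rests on a length of 2005 bases for Max, against 3598 by GENCODE exons. For Mga the lengths were 13931 and 15340 bases. The serum-free libraries held 579 and 579 CPM at 0 h, 639.6 and 647 at 12 h, 662 and 677 at 24 h, and 509.6 and 533 at 40 h. The serum libraries held 598 and 562 CPM at 0 h, 537 and 548 at 12 h, 739 and 712 at 24 h, and 542 and 549.8 at 40 h. Mga was highest at 24 h in both arms, and in the serum arm the 24 h libraries stood above all others. The log2 fold change at 24 h was 0.21 ± 0.04 and 0.32 ± 0.04 (edgeR adjusted p = 2.86e-07 and 2.06e-14). From 24 to 40 h it was -0.36 ± 0.04 and -0.41 ± 0.04 (adjusted p = 4.25e-16 and 3.75e-20). At 12 h the arms differed in direction, with 0.15 in the serum-free arm (edgeR adjusted p = 0.000243) and -0.10 in the serum arm (adjusted p = 0.0209). The second of these calls was lost without the low-count filter and without replicate 1 at 0 or at 12 h.

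Mnt, a widely expressed repressor and the highest per length of the Sin3-recruiting members (13.8 to 20.3 RPKM), fell early and stayed low. Its serum-free libraries held 92.7 and 93.9 CPM at 0 h and 67.1 to 73.0 later. Its serum libraries held 79.1 and 83.2 CPM at 0 h and 59.4 to 73.7 later. No later library reached a 0 h library of its arm. The log2 fold change at 12, 24 and 40 h was -0.44, -0.39 and -0.45 for the serum-free arm (edgeR adjusted p of 2.71e-08, 3.87e-07 and 5.42e-09). For the serum arm it was -0.35, -0.27 and -0.19 (adjusted p of 5.41e-06, 0.000242 and 0.00631), and the last was lost in DESeq2 (adjusted p = 0.0629), with library size only, and without replicate 2 at 0 or at 40 h.

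Mxi1, a repressor of the Mxd group, was like Mycl lowest at 24 h. Its serum-free libraries held 48.3 and 41.6 CPM at 0 h, 40.7 and 39.9 at 12 h, 32.1 and 35.3 at 24 h, and 37.4 and 36.7 at 40 h. The serum ones held 51.8 and 54.9 CPM at 0 h, 47.3 and 43.4 at 12 h, 30.7 and 29.1 at 24 h, and 33.9 and 36.5 at 40 h. The 0 h and 24 h libraries did not overlap in either arm. The log2 fold change at 24 h was -0.41 ± 0.10 and -0.83 ± 0.09 (edgeR adjusted p = 0.000142 and 4.07e-15).

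Mxd3, a Mxd protein linked to proliferating cells, rose from a low level. It held 7.51 and 7.54 CPM at 0 h and 10.0 to 13.8 later in the serum-free arm. The serum arm had 5.96 and 5.25 CPM at 0 h and 8.88 to 12.6 later. All later libraries lay above the 0 h libraries of their arm. The log2 fold change at 40 h was 0.56 ± 0.20 and 0.95 ± 0.20 (edgeR adjusted p = 0.00943 and 8.14e-06), and the first was lost without replicate 2 at 40 h. Prelid1, which overlaps Mxd3 and had group means of 171 to 199 CPM, had log2 fold changes of -0.02 and -0.05 there (adjusted p = 0.767 and 0.296). At 24 h Prelid1 was lower than at 0 h in the serum arm, by -0.15 (edgeR adjusted p = 0.00418). It was also lower there than in the serum-free arm at 24 h, by -0.22 (edgeR adjusted p = 4.8e-05).

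Mxd4, another repressor of that group, was counted only 5 and 2 times at 0 h in the serum arm and 48 times in each library at 24 h. Its serum libraries held 0.727 and 0.292 CPM at 0 h, 2.57 and 2.24 at 12 h, 5.33 and 4.93 at 24 h, and 3.02 and 3.97 at 40 h. The serum-free libraries held 1.54 and 2.11 CPM at 0 h, 1.23 and 2.41 at 12 h, 3.60 and 3.78 at 24 h, and 3.15 and 5.87 at 40 h. Every later serum library lay above both 0 h libraries, while the 12 h libraries of the serum-free arm overlapped those at 0 h. The ratio of summed counts to 0 h in the serum arm, corrected for depth, was 4.67 at 12 h (95% exact interval 2.07 to 12.4, counting error only), 10.04 at 24 h (4.69 to 25.6) and 6.79 at 40 h (3.14 to 17.5). By edgeR these passed the test with adjusted p of 0.000262, 9.12e-11 and 1.93e-07. The serum-free log2 fold change was 1.00 ± 0.38 at 24 h (adjusted p = 0.019) and 1.27 ± 0.36 at 40 h (adjusted p = 0.00109). The 24 h call was lost in DESeq2 (adjusted p = 0.0763) and without replicate 1 at 0 h or either replicate at 24 h, and the 40 h call without replicate 2 at 40 h.

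Mxd1, whose product takes the place of Myc at Max when several cell types differentiate, stayed between 4.15 and 8.20 CPM. Its means at the 4 times were 7.64, 6.84, 5.03 and 5.35 CPM for the serum-free arm and 5.03, 6.23, 7.33 and 5.59 for the serum arm. At 24 h the log2 fold change was -0.59 ± 0.24 in the serum-free arm and 0.54 ± 0.23 in the serum arm (edgeR adjusted p = 0.0295 and 0.0298). In DESeq2 neither passed (adjusted p = 0.0964 and 0.121). The ratio of summed activators to Mnt, Mxi1 and the Mxd genes in RPKM was 1.37 and 1.36 at 0 h and 3.25 and 2.65 at 40 h for the serum-free arm, and 2.03 and 1.81 and then 2.81 and 2.47 for the serum arm.

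Many genes changed on exit, so the members' counts are read against all 14288 genes tested. Against 0 h, the serum-free arm had 6 of 10 (44.9% of all genes), 4 higher and 2 lower (22.0% and 22.9%) called at 12 h. At 24 h it had 9 of 10 (58.8% of all genes), 5 higher and 4 lower (29.7% and 29.1%), and at 40 h 10 of 10 (69.0% of all genes), 4 higher and 6 lower (35.2% and 33.8%). The serum arm had 7 of 10 (51.3% of all genes), 3 higher and 4 lower (26.2% and 25.1%) at 12 h. At 24 h it had 9 of 10 (64.4% of all genes), 6 higher and 3 lower (33.5% and 30.9%), and at 40 h 8 of 10 (70.4% of all genes), 3 higher and 5 lower (35.8% and 34.6%). The median log2 fold change of the members at 40 h was -0.15 and -0.10, beside 0.02 and 0.01 over all genes. Called under all alternatives run at 40 h were Myc, Mycn, Mycl, Mnt and Mga in the serum-free arm and Myc, Mycn, Mycl, Mxd3, Mxd4 and Mxi1 in the serum arm. All comparisons with 0 h in an arm share the same 2 control libraries.

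Between neighbouring times, the step from 12 to 24 h had 4 of 10 (35.2% of all genes), 2 higher and 2 lower (17.0% and 18.2%) in the serum-free arm and 5 of 10 (48.3% of all genes), 3 higher and 2 lower (24.7% and 23.7%) in the serum arm. The step from 24 to 40 h had 2 of 10 (46.6% of all genes), 1 higher and 1 lower (23.1% and 23.4%) for the serum-free arm. For the serum arm it had 6 of 10 (50.6% of all genes), 3 higher and 3 lower (25.3% and 25.2%). In the serum-free arm the members called from 24 to 40 h were Mycl, which rose, and Mga, which fell.

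**Figure D3:**
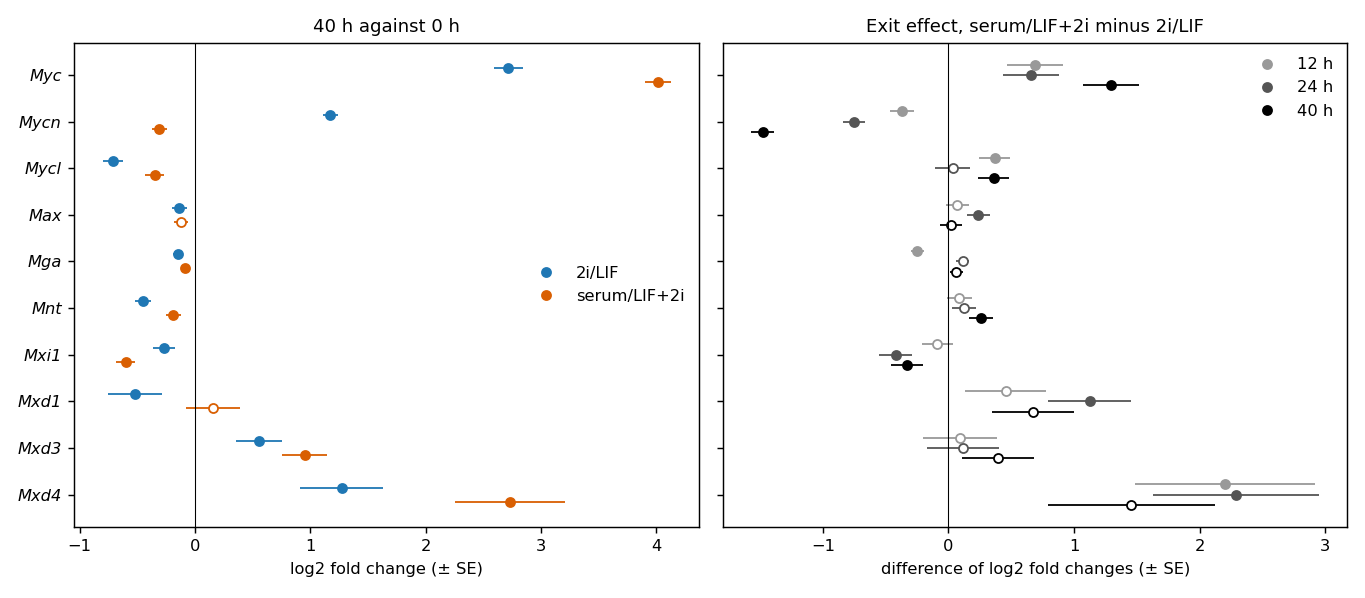
Left, log2 fold change of each gene at 40 h against 0 h in the serum-free (blue) and serum (orange) arms. Right, the exit effect in the serum arm minus that in the serum-free arm at 12, 24 and 40 h. Bars are ± SE and filled points passed the test. Myc lies at 2.71 and 4.01 and Mycn at 1.17 and -0.31 on the left, and the fitted values of Mxd4 rest on 5 and 2 counts at 0 h in the serum arm.

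The arms were next compared directly, as serum against serum-free at each time. At 0 h 5 of 10 (33.0% of all genes), 2 higher and 3 lower (14.6% and 18.4%) passed, and of these calls Mycn alone was kept under all alternatives run. Mycn was higher in the serum arm by a log2 of 0.57 ± 0.07 (edgeR adjusted p = 3.67e-10), with both libraries above both serum-free ones. Myc had -0.49 ± 0.21, which did not pass (adjusted p = 0.0597), although both its serum libraries lay below the serum-free ones. The other calls at 0 h were Mxi1 at 0.25, Mnt at -0.20, Mxd1 at -0.60 and Mxd4 at -1.82, the last from 7 counts in all against 23. At 12 h 4 of 10 (30.4% of all genes), 3 higher and 1 lower (14.8% and 15.6%) passed, of which Mga, at -0.24 ± 0.04 (edgeR adjusted p = 1.01e-08), was kept throughout. At 24 h 3 of 10 (30.8% of all genes), 2 higher and 1 lower (15.0% and 15.9%) passed, namely Mycn, Max and Mga. Mycn and Max were lost in DESeq2 (adjusted p = 0.0855 and 0.0696), and Mga was lost without replicate 1 of either arm.

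At 40 h Myc and Mycn differed between the arms in opposite directions. Myc was higher in the serum arm by 0.80 ± 0.07, and Mycn was lower, at -0.91 ± 0.06 (edgeR adjusted p = 6.67e-20 and 7.26e-22). No library of either gene overlapped the other arm. In all 3 of 10 (27.5% of all genes), 2 higher and 1 lower (13.3% and 14.2%) passed, the third being Mycl at 0.25 ± 0.09 (adjusted p = 0.0227), which was lost in DESeq2 (adjusted p = 0.136). Scaling by library size only put 60.0% of all calls at 40 h higher in the serum arm, against 48.3% here. With that scaling Mga also passed, at 0.10 (adjusted p = 0.0232), against 0.07 here (adjusted p = 0.171).

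Whether exit acted differently in the arms was tested as the difference of the exit effects, serum minus serum-free. At 40 h it was 1.30 ± 0.22 for Myc (edgeR adjusted p = 9.55e-07) and -1.48 ± 0.09 for Mycn (adjusted p = 2.73e-22), and both held under all 14 alternatives. At 12 h 5 of 10 (9.20% of all genes), 3 higher and 2 lower (4.77% and 4.43%) passed. At 24 h 6 of 10 (20.7% of all genes), 4 higher and 2 lower (10.3% and 10.4%) passed, and at 40 h 5 of 10 (27.8% of all genes), 3 higher and 2 lower (14.4% and 13.4%). Myc and Mycn were called at all 3 times with opposite signs. Mga at 12 h, -0.25 ± 0.05 (edgeR adjusted p = 0.000207), and Mycn at 24 h, -0.75 ± 0.09 (adjusted p = 2.94e-10), were also kept throughout. The other 12 calls were each lost under at least 2 of the 14 alternatives. These tests share the 0 h libraries, in which Mycn was already higher in the serum arm. Myc (-0.49, not called) and Mxd4 (-1.82) were lower there, and these 0 h differences enter their differences of exit effects. Compared directly, serum against serum-free, Myc differed by 0.20 at 12 h and by 0.16 at 24 h, the latter not called.

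Genes with the most similar course over the 16 libraries were sought for each activator among 10687 genes averaging 5 CPM or more. For Myc they were Cntfr (Pearson's r of log2 CPM 0.987), Snx24 (0.985) and Cbx7 (0.984). Cntfr, a receptor subunit for the LIF relative CNTF, had group means of 1.15 and 0.73 CPM at 0 h and 60.8 and 180.3 CPM at 40 h, serum-free first. Cbx7, a Polycomb subunit, moved less, with 203 and 189 CPM at 0 h and 272 and 288 at 40 h. For Mycn they were Fkbp5 (0.917), Prss36 (0.888) and Fastkd2 (0.8875). Prss36 had 13.1 and 13.3 CPM at 24 h and 12.6 and 8.02 CPM at 40 h, again serum-free first. For Mycl they were Map6 (0.963), Slc5a3 (0.946) and Kif3a (0.937). The libraries share 8 groups, so these correlations describe shared time courses.

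The Mlx branch pairs Mlx with the glucose-responsive factors Mlxip (MondoA) and Mlxipl (ChREBP), and connects to Max through shared Mxd partners. Mlxip rose in both arms by 40 h, from 38.7 to 71.3 CPM for the serum-free arm and from 40.1 to 86.4 CPM for the serum arm. Its log2 fold changes were 0.88 ± 0.08 and 1.11 ± 0.07 (edgeR adjusted p = 2.79e-18 and 1.86e-28). Mlxipl was low, with means of 3.40 and 7.68 CPM at 40 h, a log2 difference of 1.17 ± 0.24 in favour of the serum arm (adjusted p = 4.33e-05). Mlx had log2 fold changes of -0.13 and -0.08 at 40 h, which did not pass (adjusted p = 0.159 and 0.369).

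Of 40 growth genes known as Myc targets, all tested, 30 were higher and 3 lower at 40 h in the serum-free arm, where 35.2% and 33.8% of all genes were called in those directions. Their median log2 fold change was 0.32, beside 0.02 over all genes. The serum arm had 28 higher and 5 lower (35.8% and 34.6% of all genes), with a median of 0.18 beside 0.01. Odc1, which starts polyamine synthesis, rose from 241 to 662 CPM for the serum-free arm and from 265 to 588 CPM for the serum arm, log2 fold changes of 1.46 ± 0.04 and 1.15 ± 0.04 (edgeR adjusted p = 4.9e-65 and 2.19e-55). Srm, spermidine synthase, rose by 1.08 ± 0.05 in the serum arm, and the nucleolar protein gene Ncl by 0.63 ± 0.03 in the serum-free arm. Ccnd2, a D-type cyclin, started the serum course at 0.66 CPM, reached 42.6 at 12 h and stood at 15.6 at 40 h. Its starting level was near the floor of 3 counts, which was 0.436 and 0.438 CPM in those libraries. Tfrc, the transferrin receptor, went the other way, at -0.87 ± 0.04 and -1.36 ± 0.04 (adjusted p = 1e-43 and 4e-64). Ldha, lactate dehydrogenase, rose by 1.61 ± 0.04 in the serum-free arm and had -0.33 ± 0.04 in the serum arm, where it started higher (1210 against 443 CPM). The difference of the exit effects of Ldha was -1.93 ± 0.05 (adjusted p = 8.19e-64). At 40 h 2 of the 40 were higher and 12 lower in the serum arm than in the serum-free arm, beside 13.3% and 14.2% of all genes. The median difference of the list was -0.02, beside 0.0028 over all genes.

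Windows of 33 of the 40 growth genes were matched, and 11 of them, 33.3%, held CACGTG, beside 8.09% of all genes with a window. The list holds known Myc targets, so this share may follow from how the list was made. Cdk4, the cyclin D kinase, is shown because its window held 4, each in capitals. Its group means lay between 653 and 815 CPM, and it was lower in the serum arm at 0 h by a log2 difference of -0.16 (edgeR adjusted p = 0.000133).
Cdk4, chr10:127063285-127063544, plus strand: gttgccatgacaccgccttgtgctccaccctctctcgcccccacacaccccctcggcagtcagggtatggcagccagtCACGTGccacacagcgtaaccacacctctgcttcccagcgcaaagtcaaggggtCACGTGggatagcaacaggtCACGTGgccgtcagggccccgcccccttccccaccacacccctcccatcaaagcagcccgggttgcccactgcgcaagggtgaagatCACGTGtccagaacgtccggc

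Of 12 genes known to be repressed by Myc, 5 were higher and 4 lower at 40 h in the serum-free arm (35.2% and 33.8% of all genes) and 5 higher and 5 lower in the serum arm (35.8% and 34.6%). The medians were 0.18 and -0.03, beside 0.02 and 0.01 over all genes. Cdkn1a, which encodes the cell cycle inhibitor p21, had -2.30 ± 0.05 and -2.02 ± 0.05 (edgeR adjusted p = 5.56e-73 and 1.06e-68), from means of 394 and 311 CPM at 0 h. Cdkn1c, another cell cycle inhibitor, rose by 3.68 ± 0.21 and 5.87 ± 0.17 (adjusted p = 2.44e-34 and 2.46e-63). The stress-response gene Gadd45a rose by 4.24 ± 0.15 and 4.34 ± 0.13, while its relative Gadd45b had -3.91 ± 0.19 and -4.94 ± 0.20. Gadd45g was at the floor of 3 counts or below at 0 h, at 0.171 to 0.301 CPM, and reached 28.8 to 33.9 CPM at 40 h.

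Of 17 germline genes known to be silenced by Max and Mga with PRC1.6 in ES cells, all tested, 7, 11 and 13 were higher at 12, 24 and 40 h in the serum-free arm and 11, 15 and 15 in the serum arm. Calls grew with time over all genes too, with 22.0%, 29.7% and 35.2% higher in the serum-free arm and 26.2%, 33.5% and 35.8% in the serum arm. At 40 h 1 was lower in the serum-free arm and 0 in the serum arm, beside 33.8% and 34.6% of all genes. The median log2 fold change at 40 h was 1.78 and 2.41, beside 0.02 and 0.01 over all genes. With genes at or under 3 counts at 0 h set to their lower bound, the medians were 1.53 (Tex101) and 2.41 (Slc25a31 and Taf7l). Mael, a piRNA pathway gene, went from 2.02 to 25.4 CPM and from 1.75 to 38.7 CPM, log2 fold changes of 3.66 ± 0.22 and 4.45 ± 0.19 (edgeR adjusted p = 1.31e-32 and 1.75e-45). Zcwpw1, a reader of meiotic chromatin, rose by 2.50 ± 0.19 and 2.77 ± 0.15, and Ddx4, the germ cell helicase Vasa, by 2.01 ± 0.19 and 2.96 ± 0.17. Taf7l, a germ cell relative of a TFIID subunit, was at 0.145 to 0.292 CPM at 0 h in the serum arm and at 19.9 to 23.1 CPM at 40 h. Dazl, a germ cell RNA-binding protein gene, had 53.9 CPM at 0 h in the serum-free arm and 12.4 in the serum arm, and 14.3 and 23.4 CPM at 40 h. The difference of its exit effects was 2.82 ± 0.17 (adjusted p = 1.77e-29). Over the same comparisons Max and Mga had log2 fold changes between -0.15 and 0.32.

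CACGTG was found in 10 of the 15 germline windows matched, 66.7%, beside 8.09% of all genes with a window. The list holds known targets of Max and Mga, so this share may follow from how the list was made. Those of Mael and Ddx4, each with a single CACGTG in capitals, are printed because both genes rose in both arms.
Mael, chr1:166238735-166238994, minus strand: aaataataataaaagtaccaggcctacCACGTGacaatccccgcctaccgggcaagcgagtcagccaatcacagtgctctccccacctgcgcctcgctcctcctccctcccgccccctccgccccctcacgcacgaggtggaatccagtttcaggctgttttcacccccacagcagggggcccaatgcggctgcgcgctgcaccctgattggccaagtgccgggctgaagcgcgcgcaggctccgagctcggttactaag
Ddx4, chr13:112652301-112652560, minus strand: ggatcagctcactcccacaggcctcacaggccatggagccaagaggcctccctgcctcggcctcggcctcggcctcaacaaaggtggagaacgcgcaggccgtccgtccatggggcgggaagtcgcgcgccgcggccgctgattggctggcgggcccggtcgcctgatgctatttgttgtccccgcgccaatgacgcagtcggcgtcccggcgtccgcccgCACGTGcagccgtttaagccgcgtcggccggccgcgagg

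**Figure D4:**
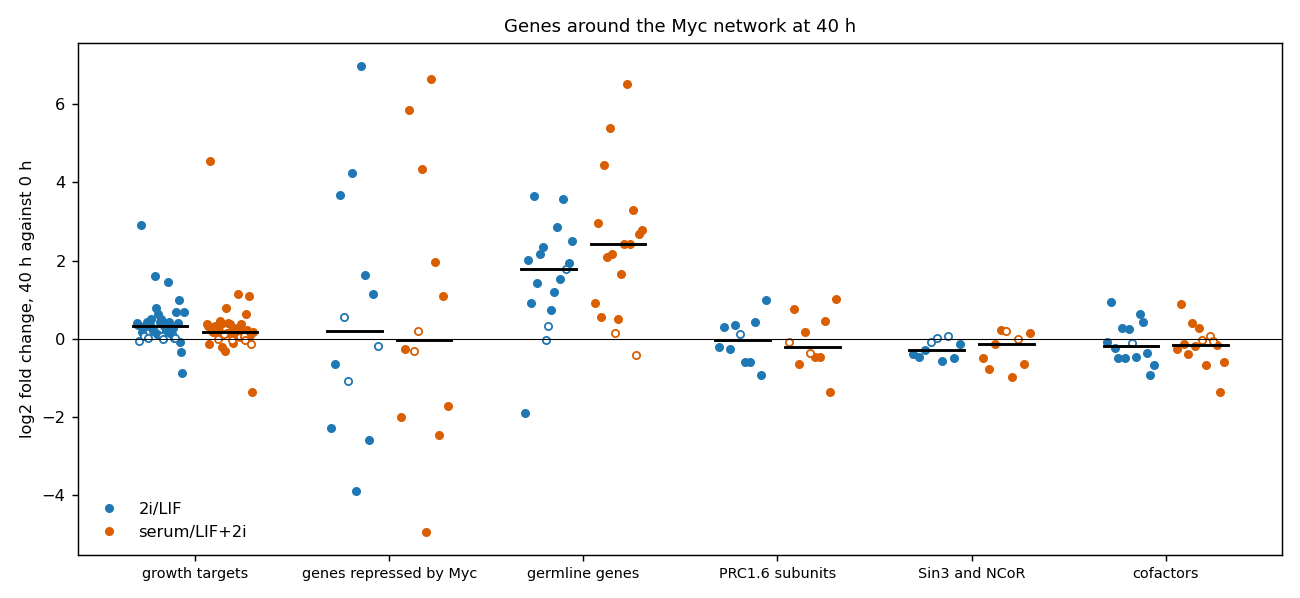
Log2 fold change at 40 h against 0 h for every tested gene of 6 lists around the Myc network, blue for the serum-free arm and orange for the serum arm, with filled points for genes that passed the test and black lines for medians. The medians are 0.32 and 0.18 for growth targets and 1.78 and 2.41 for germline genes, and genes repressed by Myc spread both ways.

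Of 10 PRC1.6 subunits other than Max and Mga, 4 were higher and 5 lower at 40 h in the serum-free arm, and 4 higher and 4 lower in the serum arm. Over all genes 35.2% and 33.8% were called so in the first and 35.8% and 34.6% in the second. The medians were -0.05 and -0.23, beside 0.02 and 0.01 over all genes. Wdr5, which is also a Myc cofactor, had -0.95 ± 0.04 and -1.36 ± 0.04 (edgeR adjusted p = 7.2e-46 and 1.61e-63). The ubiquitin ligase subunit Rnf2 had -0.60 ± 0.05 and -0.46 ± 0.05, and the DNA-binding partner Tfdp1 rose by 0.42 ± 0.06 and 0.46 ± 0.05. E2f6, the E2F protein of the complex, rose by 0.75 ± 0.09 in the serum arm, and the difference of its exit effects was 0.47 ± 0.13 (adjusted p = 0.00309).

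Of 9 Sin3 and NCoR corepressor genes, whose products Mxd proteins and Mnt recruit, 0 were higher and 6 lower at 40 h in the serum-free arm, and 2 higher and 5 lower in the serum arm. Over all genes 35.2% were higher and 33.8% lower in the first, 69.0% together, and 35.8% and 34.6% in the second. The medians were -0.29 and -0.15, beside 0.02 and 0.01 over all genes. Hdac2, a histone deacetylase, had -0.47 ± 0.04 and -0.77 ± 0.04 (edgeR adjusted p = 8.23e-19 and 2.09e-35), and Sap30, a Sin3 subunit, -0.99 ± 0.07 in the serum arm. Among 14 Myc cofactors, 5 were higher and 8 lower for the serum-free arm and 3 higher and 8 lower for the serum arm, beside the same shares of all genes. Their medians were -0.18 and -0.15, beside 0.02 and 0.01 over all genes. Bptf, a chromatin remodelling subunit that Myc recruits, rose by 0.94 ± 0.04 and 0.89 ± 0.04.

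Of 12 genes that control the stability of Myc protein, 5 were higher and 3 lower at 40 h in the serum-free arm and 5 higher and 5 lower in the serum arm. The 8 of 12 called in the serum-free arm are close to the 69.0% called over all genes (35.2% higher and 33.8% lower), and the serum arm had 35.8% and 34.6%. The medians were 0.05 and -0.10, beside 0.02 and 0.01 over all genes. Gsk3b, whose kinase marks Myc for degradation and is inhibited by CHIR99021, had -0.64 ± 0.06 and -0.37 ± 0.06 (edgeR adjusted p = 2.95e-18 and 2.63e-09). The deubiquitinase gene Usp36 rose by 0.70 ± 0.06 and 1.16 ± 0.06. Usp28, another deubiquitinase of Myc, rose by 0.69 ± 0.05 in the serum-free arm, from 134 to 216 CPM, and had -0.09 ± 0.05 in the serum arm (adjusted p = 0.0874). The difference of its exit effects was -0.78 ± 0.07 (adjusted p = 6.57e-18).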

How the data were processed

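Counts per gene from 16 libraries were deposited as 1 table with gene lengths. The authors' counts are whole numbers, not normalized, since columns sum to different totals. Per the submitters' processing notes, fastp, STAR and featureCounts were used with mm10, and versions, annotation and strand setting are not given in the sources used here. Genes were kept with filterByExpr of edgeR 4.0.16 in R 4.3.3 (minimum count 10, minimum total 15), which left 14288, and scaled by TMM. All libraries were fitted with a term per group (8 residual degrees of freedom), and 17 comparisons were tested two-sided with edgeR's quasi-likelihood F test, Benjamini-Hochberg adjusted over all genes, and called at an adjusted p under 0.05. Each gene's spread was drawn towards that of all genes tested, with robust settings. The p-values therefore rest on more than the gene's own libraries. SEs come from the F statistic. RPKM used the deposited lengths. Log2 CPM for correlations used a prior count of 2. A floor of 3 counts is 0.258 to 0.512 CPM, for counting error only. The members and lists were chosen with earlier results of these data known. All members, the Mlx branch and the 3 genes most correlated with each activator could be named. So could up to 3 genes per list, comparison and direction by smallest adjusted p. Outside that rule, Slc25a31, Tex101, Lum, Elf5 and Mesp1 were named, and the printed windows chosen, after values were seen. Prelid1 was also named outside that rule, as a gene that overlaps Mxd3. In simulated data (13729 genes), 195 of the genes tested were changed, up or down, in the serum-free 40 h group alone. For exit in the serum-free arm, 96.0% of genes changed 4-fold and 79.2% changed 2-fold were recovered. Recovery was 98.0% and 83.3% between the arms, and 87.9% and 74.0% for the difference of exit effects. Unchanged genes called numbered 10, 18 and 9, and 0 genes were called for exit in the serum arm, where none was changed. In the data 69.0% of genes were called for exit in the serum-free arm at 40 h, so these rates may not carry over. The labels do not say that replicate numbers pair the libraries, so the main fit used no pairing. Alternatives were DESeq2 1.42.0, its size factors, library size only, no filter, a replicate block, each library left out and, chosen after seeing the data, leaving out ribosomal RNA genes.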

Additional observations from a re-analysis of the deposited data

Results flagged for a closer look

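In 16 cases the exit effect of a member differed between the media, by the test of that difference in edgeR at an adjusted p under 0.05. These were 5, 6 and 5 of the 10 members at 12, 24 and 40 h, beside 9.20%, 20.7% and 27.8% of all genes. Each value is the log2 fold change against 0 h in the serum arm (serum/LIF+2i) minus that in the serum-free arm (2i/LIF). At 12 h the differences were 0.69 for Myc, -0.37 for Mycn, 0.37 for Mycl, 2.20 for Mxd4 and -0.25 for Mga. At 24 h they were 0.66 for Myc, -0.75 for Mycn, 0.24 for Max, 1.13 for Mxd1, 2.29 for Mxd4 and -0.42 for Mxi1. At 40 h they were 1.30 for Myc, -1.48 for Mycn, 0.36 for Mycl, 0.26 for Mnt and -0.33 for Mxi1. Those for Mga at 12 h, Mycn at 24 h and Myc and Mycn at 40 h passed under all 14 alternatives. All 3 Myc effects rest on 38 to 56 counts per library at 0 h, and those of Mxd4 on 2 to 14. Groups of 2 libraries are too small for a search for outlying libraries.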

How the results depend on the processing

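Of 97 calls of members in the 17 comparisons, 58 passed under every alternative run. DESeq2 called fewer members. Against 0 h it lost Mxd1 and Mxd4 at 24 h and Max and Mxd1 at 40 h in the serum-free arm. In the serum arm it lost Mxi1 at 12 h, Mxd1 at 24 h, and Mnt and Mga at 40 h. The largest relative drops were in other comparisons. It called 2 instead of 4 for 24 h against 12 h in the serum-free arm. For serum against serum-free at 0, 12 and 24 h it called 2, 1 and 1 instead of 5, 4 and 3. For the difference of exit effects at 12, 24 and 40 h it called 1, 2 and 2 instead of 5, 6 and 5. Leaving out each library in turn gave 2 to 3, then 1 to 4, 1 to 4 and 1 to 2, then 2 to 4, 3 to 7 and 2 to 6 for the same comparisons. Over all genes DESeq2 called 3097, 2638, 2688 and 1982 instead of 4716, 4340, 4407 and 3924 between the media at the 4 times, and 536, 1720 and 2377 instead of 1315, 2960 and 3970 for the difference of exit effects. Without replicate 1 of the serum-free arm at 40 h the count between the media at 40 h was 2256. Leaving out ribosomal RNA genes gave 41.3% of all calls as higher in the difference of exit effects at 12 h, against 51.9% otherwise. The replicate block changed 0 of 170 member results: with it, Myc at 40 h in the serum arm had a log2 fold change of 4.01 and Mycn -0.31. Deviations of same-numbered libraries from their group means had correlations between groups from -0.023 to 0.033. Counting error pulls such correlations towards 0, so they cannot settle whether replicate numbers pair libraries. 

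Log2 values near 0 that had not passed the test changed sign under another setting: Mxd4 0.0094 (12 h against 0 h in the serum-free arm, without ribosomal RNA genes), Max 0.0044 (12 h against 0 h in the serum arm, no filter on low counts), Max 0.016 (40 h against 24 h in the serum-free arm, library size only), Mga -0.0028 (serum against serum-free at 0 h, DESeq2), Mga -0.0028 (serum against serum-free at 0 h, DESeq2 size factors in edgeR), Mga -0.0010 (serum against serum-free at 0 h, no filter on low counts), Max 0.025 (serum against serum-free at 40 h, library size only), Mxd3 0.0083 (serum against serum-free at 40 h, library size only). The cause was not tested. When single libraries were left out, these values changed sign. For 12 h against 0 h in the serum-free arm, Max ranged from -0.16 to 0.015 and Mxd4 ranged from -0.58 to 0.37. In the case of 12 h against 0 h in the serum arm, Mycn ranged from -0.18 to 0.0056 and Max ranged from -0.080 to 0.056. Looking at 24 h against 12 h in the serum-free arm, Mxd3 ranged from -0.19 to 0.27. As to 40 h against 24 h in the serum-free arm, Myc ranged from -0.18 to 0.030, Mycn ranged from -0.16 to 0.073, Max ranged from -0.066 to 0.030, Mxd1 ranged from -0.28 to 0.37, Mxd3 ranged from -0.24 to 0.0016 and Mxd4 ranged from -0.23 to 0.67. For 24 h against 12 h in the serum arm, Myc ranged from -0.074 to 0.14 and Mxd3 ranged from -0.093 to 0.14. In the case of 40 h against 24 h in the serum arm, Mxd3 ranged from -0.052 to 0.37. Looking at serum against serum-free at 0 h, Max ranged from -0.12 to 0.053 and Mga ranged from -0.043 to 0.048. As to serum against serum-free at 12 h, Mxd4 ranged from -0.014 to 0.94. For serum against serum-free at 24 h, Mycl ranged from -0.17 to 0.0041. In the case of serum against serum-free at 40 h, Max ranged from -0.058 to 0.039, Mxd1 ranged from -0.23 to 0.43, Mxd3 ranged from -0.24 to 0.18, Mxd4 ranged from -0.76 to 0.14 and Mnt ranged from -0.0042 to 0.12. Looking at the difference of exit effects at 12 h, Max ranged from -0.017 to 0.16, Mxd3 ranged from -0.12 to 0.34, Mxi1 ranged from -0.20 to 0.023 and Mnt ranged from -0.0094 to 0.16. As to the difference of exit effects at 24 h, Mycl ranged from -0.056 to 0.12 and Mxd3 ranged from -0.012 to 0.23. For the difference of exit effects at 40 h, Max ranged from -0.067 to 0.11. With 1 library left in a group, that library is assumed to vary like the others. Depth limits Mxd4, Mxd1 and Mxd3 most, and Myc at 0 h.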
